A study of Rattus norvegicus with 36 samples.

Results

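The lymphocyte markers Ms4a1, Cd79b and Cd247 were followed through 36 rat lung RNA sequencing libraries, 3 of the 27308 genes in the deposited count table. They were picked by name, with results of these data in view, because all 3 had been seen lower in rats given the anti-ZIP12 antibody APL-9796 than in rats given control IgG. That difference is therefore given below as a description without a test. Ms4a1 (rCG_48017, chromosome 1) and Cd79b (rCG_34700, chromosome 10) stood under their current symbols, whereas Cd247 (rCG_46016, chromosome 13) was listed under its older symbol Cd3z.

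Ms4a1 encodes CD20, a B cell surface protein of the MS4A family that is lost when B cells become plasma cells. Cd79b encodes Ig-beta, a signalling chain of the B cell receptor that pairs with Ig-alpha and carries the signal of bound antigen into the cell. Cd247 encodes the CD3 zeta chain, the main signalling chain of the T cell receptor, which NK cells also use with some of their activating receptors. In the lung, B and T cells circulate, lie scattered in the tissue and gather in lymphoid aggregates along the airways and vessels.

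All animals were rats of Sprague Dawley background with a humanised gene for ZIP12, a zinc importer: human Slc39a12 stood in for that of the rat (genotype HuSlc39a12). Adults of 200 to 240 g formed 6 groups of 6 libraries. Females and males breathed 10% oxygen at normal pressure for 2 weeks with APL-9796, breathed it for 2 weeks with IgG, or stayed in normoxia. Antibody and IgG were injected into the peritoneum at 10 mg/kg, first 48 h before hypoxia and then every 3 days. No antibody is named for the normoxic rats, and against them the effects of hypoxia and of injected IgG cannot be told apart. The labels do not say that each library is a separate animal, so p-values reflect library-to-library spread alone, which may be technical.

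Totals ran from 6.07 to 20.8 M counts per library, with a median of 11.1 M. Sftpc, which encodes the surfactant protein of alveolar type II cells, reached at least 6625 CPM (counts relative to library size) in every library, which fits the labelled tissue. The row for rat Slc39a12 had no read in any library (0 counts, an upper limit of 0.00735 CPM when libraries are pooled). Sequencing runs were inferred from the pool and flow cell in the names of the raw reads, not from a label. By these, 26 libraries came from run A, 9 from B and 1 from C. Run A held 5 of 6 APL-9796 libraries in each sex and 6 of 6 male normoxia libraries, while 4 of the 6 female IgG libraries came from run B. The arms were thus not balanced over runs. Fat and muscle genes were high in a few libraries, with a summed level of up to 2283 CPM in male APL-9796 5 and 916 CPM in male IgG 6, against medians of 77.4 CPM with APL-9796 and 67.0 CPM with IgG.

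The table of promoters held an entry for Cd247 among the 3 genes. It is printed because Cd247 is the gene of the 3 with a difference past the threshold. The comparison that gave this difference is not independent of how the genes were picked. Beside that of Cd247 stands the promoter of Cd3e, another chain of the same receptor, whose level varied with that of Cd247 (below). Both run from 250 bases before to 50 after the start in RefSeq, build GRCr8: Cd247 at chr13:80576019-80576318 on the plus strand and Cd3e at chr8:54211721-54212020 on the minus strand. Capitals mark CTTCCT, the reverse complement of AGGAAG, a core that ETS family factors can bind.
Cd247: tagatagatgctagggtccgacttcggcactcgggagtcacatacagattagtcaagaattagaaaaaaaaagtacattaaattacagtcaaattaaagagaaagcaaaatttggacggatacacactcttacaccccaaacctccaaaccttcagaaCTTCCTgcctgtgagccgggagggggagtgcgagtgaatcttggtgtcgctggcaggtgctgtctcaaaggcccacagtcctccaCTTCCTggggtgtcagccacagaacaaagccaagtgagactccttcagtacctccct
Cd3e: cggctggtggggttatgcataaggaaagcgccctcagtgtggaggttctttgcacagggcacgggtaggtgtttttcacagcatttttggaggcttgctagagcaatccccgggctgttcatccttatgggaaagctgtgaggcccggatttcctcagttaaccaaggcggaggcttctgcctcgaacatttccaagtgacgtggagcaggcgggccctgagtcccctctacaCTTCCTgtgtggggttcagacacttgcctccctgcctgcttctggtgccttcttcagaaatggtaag
The motif, searched on both strands, occurred at 2 places in the Cd247 promoter and at 1 in that of Cd3e. Of 33469 promoters in the table, 34.5% held it at least once and 7.96% held it 2 or more times. These are matches of letters, not measured binding.

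Ms4a1 was lowest in the APL-9796 arm. It ran from 6.82 CPM to a median of 9.47 and a highest value of 16.05 CPM with APL-9796, from 7.63 to a median of 12.5 and a highest value of 17.1 CPM with IgG, and from 9.14 to a median of 13.7 and a highest value of 15.2 CPM in normoxia. The arms overlapped, and 3 of 12 APL-9796 libraries lay below the lowest IgG library. Means were 10.0 ± 2.82 CPM with APL-9796, 12.9 ± 2.80 CPM with IgG and 12.5 ± 2.25 CPM in normoxia (SD, n = 12 each). IgG and normoxia, the neighbours at the top of this order, differed by less than their SD.

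Cd79b, the signalling partner in the B cell receptor, had the same order of arms by mean with IgG on top. Its lowest, median and highest levels were 10.2, 19.7 and 27.9 CPM with APL-9796, 14.02, 21.1 and 31.1 CPM with IgG, and 15.5, 20.98 and 26.5 CPM in normoxia. The arms overlapped over most of their range, and their medians lay within 1 SD of one another. Means were 18.3 ± 5.38 CPM with APL-9796, 22.99 ± 5.78 CPM with IgG and 21.01 ± 3.73 CPM in normoxia (SD, n = 12 each).

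Cd247, the T cell receptor chain, was also lowest with APL-9796. Its lowest, median and highest levels were 3.29, 5.94 and 7.39 CPM with APL-9796, 5.54, 6.93 and 11.2 CPM with IgG, and 4.87, 7.49 and 11.1 CPM in normoxia. All 12 APL-9796 libraries lay below the mean of the IgG arm and below the mean of the normoxic arm, although the ranges overlapped. Those means pool the sexes. Within sex, 6 of 6 females and 4 of 6 males lay below the IgG mean. Against the normoxic mean of their sex, 4 of 6 females and 6 of 6 males lay below. Means were 5.68 ± 1.41 CPM with APL-9796, 7.58 ± 1.78 CPM with IgG and 7.59 ± 1.82 CPM in normoxia (SD, n = 12 each). These levels rest on modest counts: Cd247 had 20 to 149 reads per library, Ms4a1 44 to 269 and Cd79b 83 to 496. In lung tissue as a whole, fewer lymphocytes and less of each RNA per lymphocyte cannot be told apart.

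**Figure D1:**
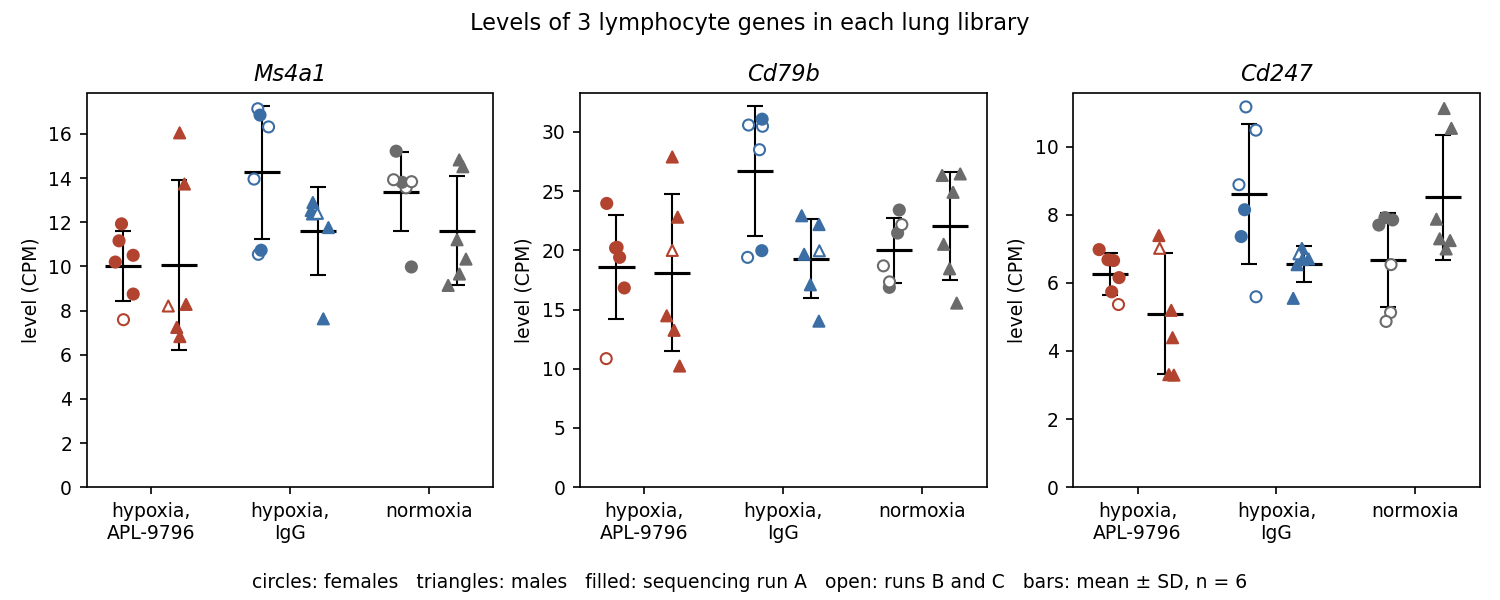
Level in CPM of Ms4a1, Cd79b and Cd247 in each library, with females as circles and males as triangles, filled for run A and open for runs B and C; horizontal lines and bars are the mean ± SD of 6 libraries. Female APL-9796 libraries sat below the median of the female IgG libraries for all 3 genes, whereas male APL-9796 libraries spread widely and overlapped with the male IgG libraries.

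The comparison of APL-9796 with IgG asks what the antibody does under hypoxia, and it is the one on which the genes were picked. The log2 difference was −0.35 ± 0.13 (SE) for Ms4a1, −0.30 ± 0.13 for Cd79b and −0.40 ± 0.13 for Cd247, or changes of −21.4%, −18.6% and −24.3%. Across all 15570 genes tested, 0 passed a Benjamini-Hochberg adjusted p (FDR) of 0.05 in edgeR's quasi-likelihood test, a share of 0%, and 626 had an unadjusted p under 0.05. DESeq2 and limma-voom also called 0. The middle 90% of all genes lay between −0.22 and 0.24, so the 3 genes stood beyond its lower edge, where the rule had looked for them.

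The values within each sex are likewise a description. In females, all 6 APL-9796 libraries lay below the median of the 6 IgG libraries for each of the 3 genes, with log2 differences of −0.50 ± 0.18 for Ms4a1, −0.51 ± 0.19 for Cd79b and −0.45 ± 0.18 for Cd247. Males gave −0.19 ± 0.18, −0.09 ± 0.19 and −0.36 ± 0.18, and 3 of 6 male APL-9796 libraries lay below the male IgG median for Cd79b. The male value of Cd79b was 0.04 without male APL-9796 3 and −0.28 without male APL-9796 5, male IgG 6 and female IgG 11. The difference between the sexes was tested in the same model, where 0% of genes passed. For Ms4a1 it was −0.32 (95% interval −0.84 to 0.21, FDR 0.963), for Cd79b −0.42 (−0.97 to 0.12, FDR 0.963) and for Cd247 −0.09 (−0.61 to 0.42, FDR 0.981). In run A alone the APL-9796 minus IgG values over both sexes were −0.26 for Ms4a1, −0.22 for Cd79b and −0.36 for Cd247.

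Other genes of the same cells had differences of various sizes between APL-9796 and IgG, and 0 of them passed. Without Ms4a1 and Cd79b, 10 of 12 B cell markers tested had a log2 difference below 0, with a median of −0.18, against 48.3% of all genes and a median of 0.00. The next by p were Cd37, a tetraspanin of B cells (−0.20 ± 0.10), and Blk, a B cell Src family kinase (−0.30 ± 0.16). The highest of the B cell markers was at 0.22. Without Cd247, 12 of 19 T cell markers lay below 0, with a median of −0.12. Named by smallest p, Cd8b, a chain of the CD8 coreceptor, was at −0.55 ± 0.19 and Cd3e, a CD3 chain, at −0.38 ± 0.16. Lat, the adaptor of T cell receptor signalling, was at −0.21 ± 0.11. The other T cell markers lay above 0, among them Bcl11b (0.20 ± 0.23, the highest) and Icos (0.19 ± 0.15). Plasma cell markers (3 of 3 below 0, median −0.23) and NK and cytotoxic markers (10 of 10, median −0.15) lay on the same side.

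Of 5 general leukocyte genes tested, 0 passed between APL-9796 and IgG; 4 lay below 0, Cd52 lay at 0.07, and the median was −0.19. Their part in the result was not tested. Their summed level was 296 to 424 CPM with APL-9796, 374 to 530 CPM with IgG and 370 to 707 CPM in normoxia. Rac2, a GTPase of blood cells, was at −0.19 ± 0.08 and Coro1a, an actin regulator of leukocytes, at −0.24 ± 0.10. Macrophage and monocyte markers had a median of 0.01 and neutrophil markers of 0.11.

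Hypoxia with IgG against normoxia left the 3 genes close to the normoxic level over both sexes. In this comparison, which uses the same IgG libraries as the one above and so is not independent of how the genes were picked, 12.5% of all genes passed the threshold (6.31% higher and 6.19% lower) and 0 of the 3 did. The log2 difference was 0.04 for Ms4a1 (95% interval −0.21 to 0.30, FDR 0.858), 0.11 for Cd79b (−0.16 to 0.38, FDR 0.641) and −0.01 for Cd247 (−0.27 to 0.24, FDR 0.958). Among B cell markers 0 of 14 passed. Among 20 T cell markers 1 was higher and 1 lower: Lef1, a transcription factor of naive T cells that other lung cells also express, by 0.58 ± 0.11 (FDR 0.000455), and Il7r, the IL-7 receptor chain, by −0.44 ± 0.13 (FDR 0.0204).

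Of 10 NK and cytotoxic genes tested, 5 fell in hypoxia with IgG and 0 rose, where 6.19% of all genes fell and 6.31% rose. Gzma, a granzyme, fell by 0.91 ± 0.15 on the log2 scale (FDR 4.29e-05). Ccl5, a chemokine of cytotoxic cells, fell by 0.56 ± 0.12 (FDR 0.00167), and Prf1, the pore protein perforin, fell by 0.50 ± 0.13 (FDR 0.00975). Of genes that organise lymphoid tissue, 2 of 10 rose and 1 fell: Ccl21, a chemokine that draws T cells, by 0.80 ± 0.12 (FDR 4.71e-06), Cxcl12, a stromal chemokine, by 0.71 ± 0.08 (FDR 5.88e-08), and Il7, a survival cytokine of lymphocytes, by −0.38 ± 0.13 (FDR 0.0421). Il7 lost its call in 7 of the 10 other settings, and Lef1 and Il7r in 1 each.

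Hypoxia with APL-9796 against normoxia gave 1 call among the 3 genes, Cd247, where 18% of all genes passed, 9.08% upward and 8.93% downward. This comparison shares the APL-9796 libraries with the one that picked the genes for being low in them. Low values were thus favoured here, and the FDR of the 3 genes is not independent of that choice. Cd247 fell by 0.42 ± 0.13 on the log2 scale, a change of −25.04% (FDR 0.0198). It was below the normoxic mean of both sexes together in 12 of 12 libraries. Against the normoxic mean of their own sex, 6 of 6 male and 4 of 6 female libraries lay below. Ms4a1 was at −0.30 ± 0.13 (FDR 0.0983) and Cd79b at −0.19 ± 0.13 (95% interval −0.46 to 0.08, FDR 0.345). Over 10 other settings the FDR of Cd247 ran from 0.00342 to 0.0429, and in run A alone the difference was −0.54. It missed the threshold without male APL-9796 3 (−0.35, FDR 0.0536), without male normoxia 1 (−0.36, FDR 0.0518) and without male normoxia 5 (−0.35, FDR 0.0548).

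By sex, the larger of the Cd247 values was that of males. Male APL-9796 libraries ran from 3.29 CPM to a median of 4.79 and a highest value of 7.39 CPM, against 6.99, 7.58 and 11.1 CPM in male normoxia. Libraries 2, 3, 1 and 5 of the antibody group, at 3.29, 3.30, 4.39 and 5.19 CPM, lay below every normoxic male. The fall in males was 0.73 ± 0.18 on the log2 scale (FDR 0.0122, with 4.19% of genes past the threshold), whereas females were at −0.11 ± 0.18 (FDR 0.709, with 22.6% past it). The male call was lost on leaving out APL-9796 2 or 3 or normoxia 1 or 5, with values of −0.63 to −0.60 and FDR of 0.05005 to 0.0609. The difference of this contrast between the sexes was not tested, and its values are likewise not independent of how the genes were picked.

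NK and cytotoxic genes, some of whose cells also use the zeta chain, were lower beside Cd247, and their part in its fall was not tested. Of 10 tested, 8 were lower, and the summed level of the 11 in the table was 86.4 to 160 CPM with APL-9796, 108 to 171 CPM with IgG and 124 to 257 CPM in normoxia. Ccl5 fell by 0.85 ± 0.12 (FDR 4.59e-06), Gzma by 0.95 ± 0.15 (FDR 1.95e-05) and Nkg7, a granule protein, by 0.64 ± 0.13 (FDR 0.000420). General leukocyte genes were lower as well, 3 of 5: Rac2 by 0.38 ± 0.08 (FDR 0.000691), Laptm5 by 0.40 ± 0.09 (FDR 0.00163) and Cd53 by 0.33 ± 0.09 (FDR 0.00999). Lung epithelial markers fell in the same comparison, 5 of 6 with a median of −0.43, where 8.93% of all genes fell. With IgG 4 of 6 fell, where 6.19% of all genes did. In each comparison 4 of 6 fell in females and 0 of 6 in males. Of all genes, 22.6% passed with APL-9796 and 15.5% with IgG in females, and 4.19% and 3.1% in males. The 4 calls with IgG over both sexes were each lost in 2 to 7 of the 10 other settings. Female normoxia 9 held the highest normoxic sum of all these lists, at 257 CPM for NK and cytotoxic, 707 CPM for general leukocyte and 54365 CPM for epithelial genes. Without normoxic females 8 and 9, 7 of 10 NK and cytotoxic and 2 of 5 general leukocyte genes were lower with APL-9796. Within single sexes, 5.83% of all genes passed in females and 5.93% in males in that fit, against 22.6% and 4.19% with all libraries. The share over both sexes in that fit is not given here, so its list counts lack their own background. Over both sexes, 1904 to 3842 genes passed across the 10 other settings, against 2804. The part of female normoxia 9 in these falls was not tested further.

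Between APL-9796 and normoxia, 18% of all genes passed, 9.08% upward and 8.93% downward. The lists of receptor signalling genes around the 3 genes had shares near 18%. The share was lower among B cell markers and higher among T cell markers, and these differences were not tested. Of 14 B cell markers, 1 fell and 0 rose: Cr2, the complement receptor of B cells and follicular dendritic cells, by 0.68 ± 0.19 (FDR 0.0105). It averaged 7.32 ± 3.10 CPM with APL-9796, 8.63 ± 3.00 CPM with IgG and 11.5 ± 2.86 CPM in normoxia (SD, n = 12 each). Of 19 genes of B cell receptor signalling, 2 fell, Cr2 and Plcg2, the phospholipase of that receptor (by 0.24 ± 0.08, FDR 0.0327), and 1 rose, Rasgrp3, a Ras activator (0.43 ± 0.10, FDR 0.00167). Of 18 genes of T cell receptor signalling, Cd247 fell, while Plcg1, the phospholipase used by T cells and many others (0.36 ± 0.08, FDR 0.000961), and Fyn, a Src family kinase (0.20 ± 0.06, FDR 0.0101), rose. Of 20 T cell markers, 4 fell, Cd247 and Il7r (by 0.42 ± 0.13, FDR 0.0242), Cd8a (by 0.47 ± 0.13, FDR 0.0107) and, named after its value was seen, Cd8b (by 0.53 ± 0.19, FDR 0.0490), and Lef1 rose (0.64 ± 0.11, FDR 8.87e-05). In the MS4A family 1 of 5 fell, Ms4a4a, in humans a macrophage gene (by 0.49 ± 0.17, FDR 0.0365). Ms4a4a lost its call in 7 of the 10 other settings, Plcg2 in 4 and Il7r in 1.

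**Figure D2:**
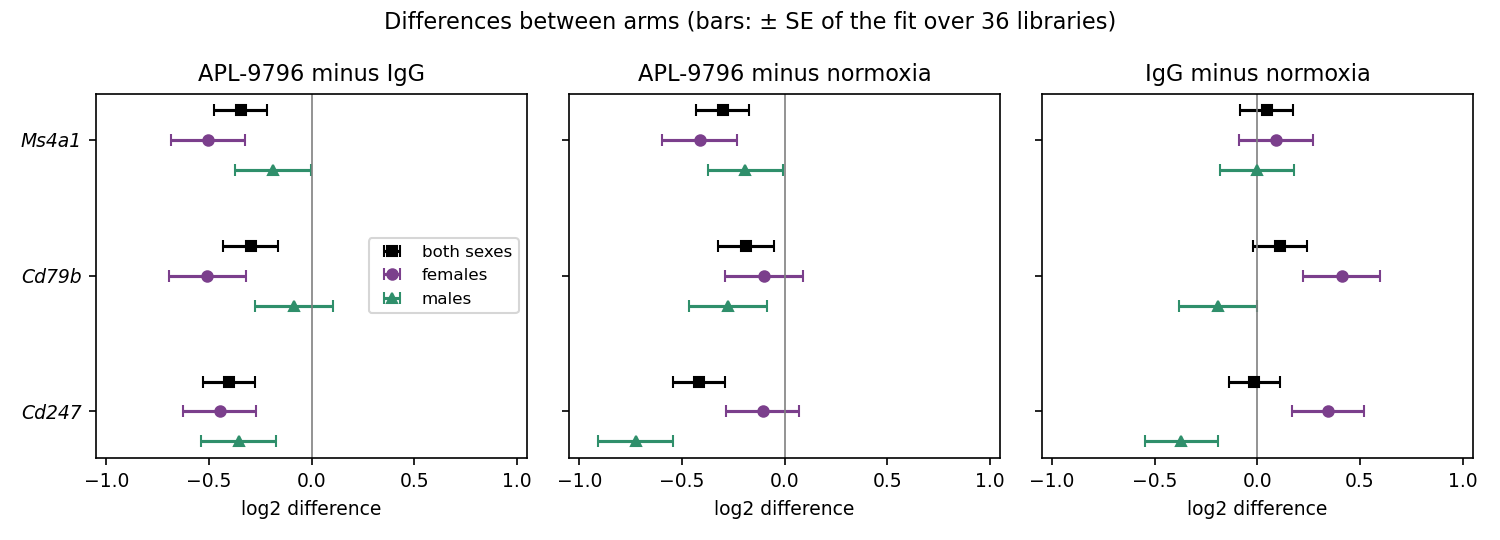
Log2 difference ± SE of Ms4a1, Cd79b and Cd247 between arms, over both sexes (squares), in females (circles) and in males (triangles), from the model of 36 libraries. APL-9796 minus IgG lay below 0 in both sexes for all 3 genes, except that male Cd79b (−0.09 ± 0.19) was 0.04 without male APL-9796 3; the lowest value against normoxia was Cd247 in males at −0.73, and IgG minus normoxia had opposite signs in females and males for Cd79b and Cd247.

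Sex itself made no difference past the threshold in the 3 genes, where 1.65% of all genes passed. Female minus male was 0.16 for Ms4a1 (95% interval −0.05 to 0.37, FDR 0.404), 0.12 for Cd79b (−0.10 to 0.34, FDR 0.555) and 0.12 for Cd247 (−0.09 to 0.33, FDR 0.543). Means were 12.6 ± 2.81 CPM in females and 11.1 ± 2.81 CPM in males for Ms4a1, 21.7 ± 5.47 CPM in females and 19.8 ± 5.01 CPM in males for Cd79b, and 7.18 ± 1.74 CPM in females and 6.72 ± 2.02 CPM in males for Cd247 (SD, n = 18 each). Of 5 general leukocyte genes, Cd53, a tetraspanin, was higher in females (0.28, FDR 0.042), a call lost in 4 other settings.

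Hypoxia with IgG had opposite signs in the sexes for Cd79b and Cd247. Cd247 ran from 5.59 to a median of 8.51 and a highest value of 11.2 CPM in IgG females, against 4.87, 7.12 and 7.91 CPM in normoxic females, and from 5.54 to a median of 6.69 and a highest value of 7.01 CPM in IgG males, against 6.99, 7.58 and 11.1 CPM in normoxic males. Of the IgG libraries, 5 of 6 in females lay above the normoxic female mean, and 5 of 6 in males lay below every normoxic male. The log2 difference was 0.34 ± 0.18 in females (FDR 0.177) and −0.37 ± 0.18 in males (FDR 0.357). Cd79b averaged 26.7 ± 5.48 CPM in IgG females and 19.99 ± 2.72 CPM in normoxic females, a difference of 0.41 ± 0.19 (FDR 0.127). In males it averaged 19.3 ± 3.31 CPM with IgG and 22.03 ± 4.55 CPM in normoxia (SD, n = 6 each), a difference of −0.19 ± 0.19 (FDR 0.772).

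The test of that difference between the sexes does not rest on the contrast that picked the genes, and none of the 3 passed it, with 0.0128% of all genes past the threshold. It was 0.71 ± 0.25 for Cd247 (95% interval 0.21 to 1.22, FDR 0.182), 0.60 ± 0.27 for Cd79b (0.06 to 1.14, FDR 0.262) and 0.09 ± 0.26 for Ms4a1 (−0.43 to 0.61, FDR 0.887). Run A alone, with 2 IgG females, gave 0.36 for Cd247, 0.50 for Cd79b and 0.10 for Ms4a1. The female difference of Cd247 was −0.01 in run A, where the 2 IgG females averaged 7.75 CPM and the 3 normoxic females 7.82 CPM. In run B the 4 IgG females averaged 9.03 CPM and the 2 normoxic females 5.70 CPM.

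The same sign held through the other lymphocyte markers. Without the 3 genes, 12 of 12 B cell markers and 19 of 19 T cell markers had a female minus male value above 0 for hypoxia with IgG, with medians of 0.57 and 0.56, where 51.1% of all genes lay below 0 and the 95th percentile was 0.56. None passed the threshold, and these genes share libraries and vary together, so they are not separate pieces of evidence. In run A alone, all 14 B cell markers and 19 of 20 T cell markers, the 3 genes included, lay above 0, with medians of 0.53 and 0.46. In the fit of all 36 libraries, general leukocyte genes had a median of −0.16 and NK and cytotoxic markers of 0.21.

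Summed over the 12 other B cell markers, the level was 145 ± 21.2 CPM in IgG females and 112 ± 17.2 CPM in normoxic females, against 110 ± 16.9 CPM in IgG males and 132 ± 19.9 CPM in normoxic males (SD, n = 6 each). In females, 5 of 14 B cell markers and 4 of 20 T cell markers passed as higher with IgG, and 0 as lower, where 15.5% of all genes passed, 7.23% upward and 8.27% downward. The B cell genes, of which 4 are named here after their values were seen, included Pax5, the B lineage transcription factor (1.04, FDR 0.0223), Cd22 (0.54, FDR 0.0409), Cd72 (0.64, FDR 0.0304) and Fcer2, the low-affinity IgE receptor (0.69, FDR 0.0283). In males 0 of these markers passed, where 3.1% of all genes did. These calls rest on few libraries. In run A alone, 0 of the 14 B cell and 0 of the 20 T cell markers passed in females, with medians of 0.24 and 0.13, where 0.614% of all genes passed. Without normoxic females 8 and 9, 0 of the 14 and 1 of the 20 passed, with medians of 0.33 and 0.31, where 6.15% of all genes passed.

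**Figure D3:**
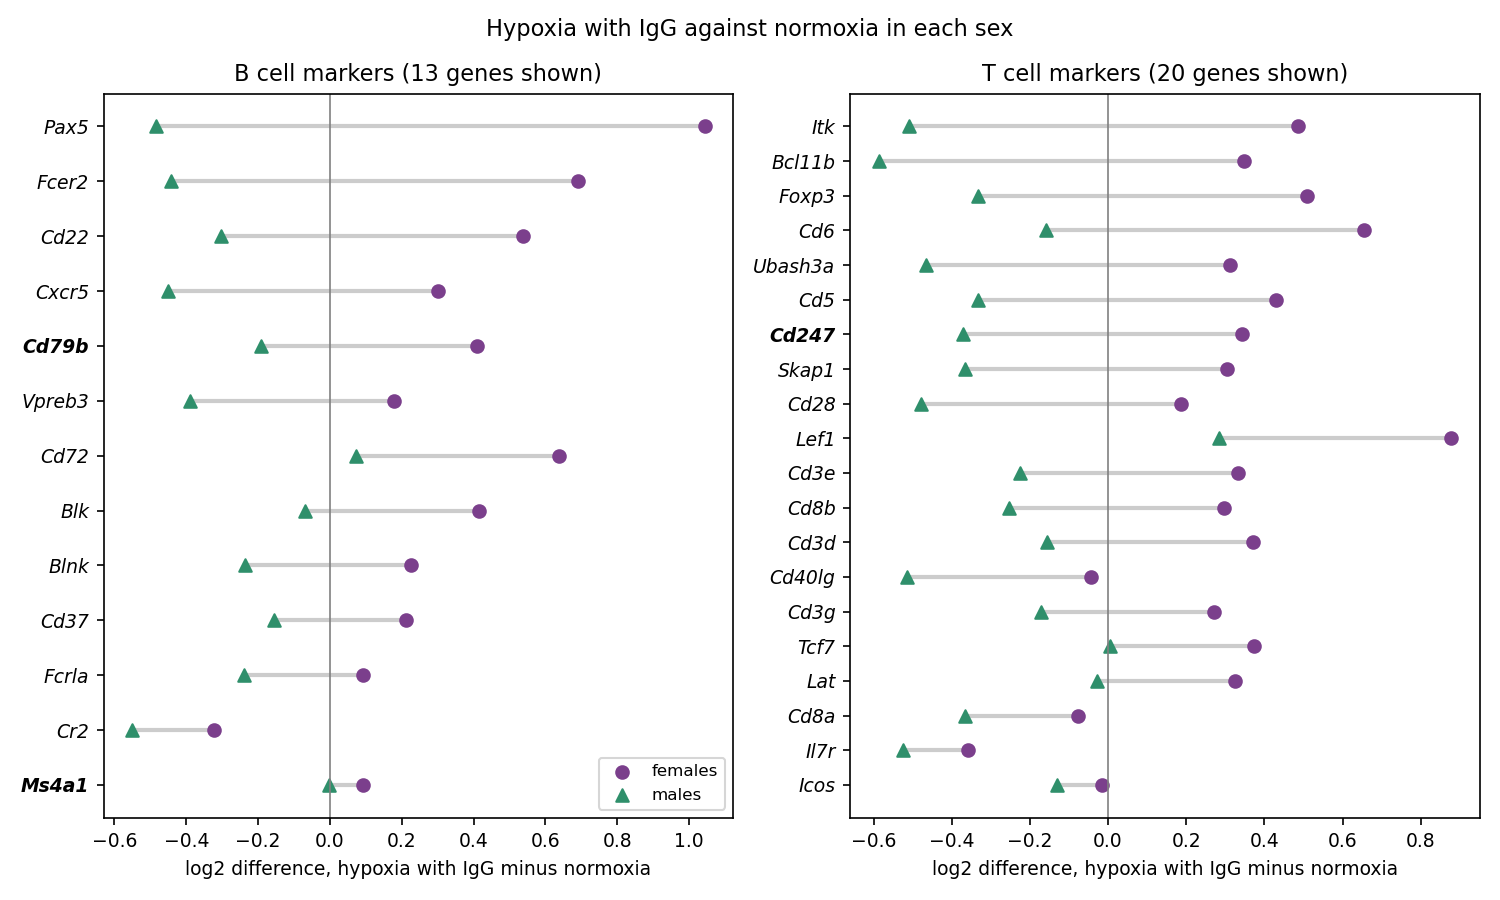
Log2 difference of hypoxia with IgG minus normoxia in females (circles) and males (triangles) for 13 of the 14 B cell markers and the 20 T cell markers tested, with grey lines joining the sexes and the 3 genes in bold. The female value lies to the right of the male value for every gene shown, from 0.09 for Ms4a1 up to 1.53 for Pax5.

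The 3 genes varied together from library to library within groups, after the group mean of log2 CPM was taken away. Ms4a1 and Cd79b, both of B cells, had Pearson's r = 0.77 (permutation p = 1e-05, the smallest 100000 resamples can give; adjusted over 3 pairs 3e-05) and Spearman's rho = 0.75 (permutation p = 1e-05) over 36 libraries. It was 0.75 without the 2 libraries farthest out, male APL-9796 6 and male IgG 3, and 0.60 to 0.92 within each of the 6 groups. Cd79b and Cd247 had r = 0.55 (permutation p = 0.00398, adjusted 0.00597) and rho = 0.51 (permutation p = 0.00649, adjusted 0.00973), with r = 0.47 (permutation p = 0.0284) without female APL-9796 7 and male APL-9796 3.

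Ms4a1 and Cd247 were tied less closely, with r = 0.47 (permutation p = 0.0273, adjusted 0.0273) and rho = 0.36 (permutation p = 0.0650). Without male APL-9796 6 and male IgG 3, r was 0.42 (permutation p = 0.0506), so the relation rests in part on those libraries. Within male IgG libraries, Cd247 ran against both B cell genes, at −0.49 with Ms4a1 and −0.60 with Cd79b over 6 libraries, and in female normoxia Ms4a1 with Cd247 was at −0.20. In run A alone, Cd79b with Cd247 gave r = 0.49 (permutation p = 0.111).

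**Figure D4:**
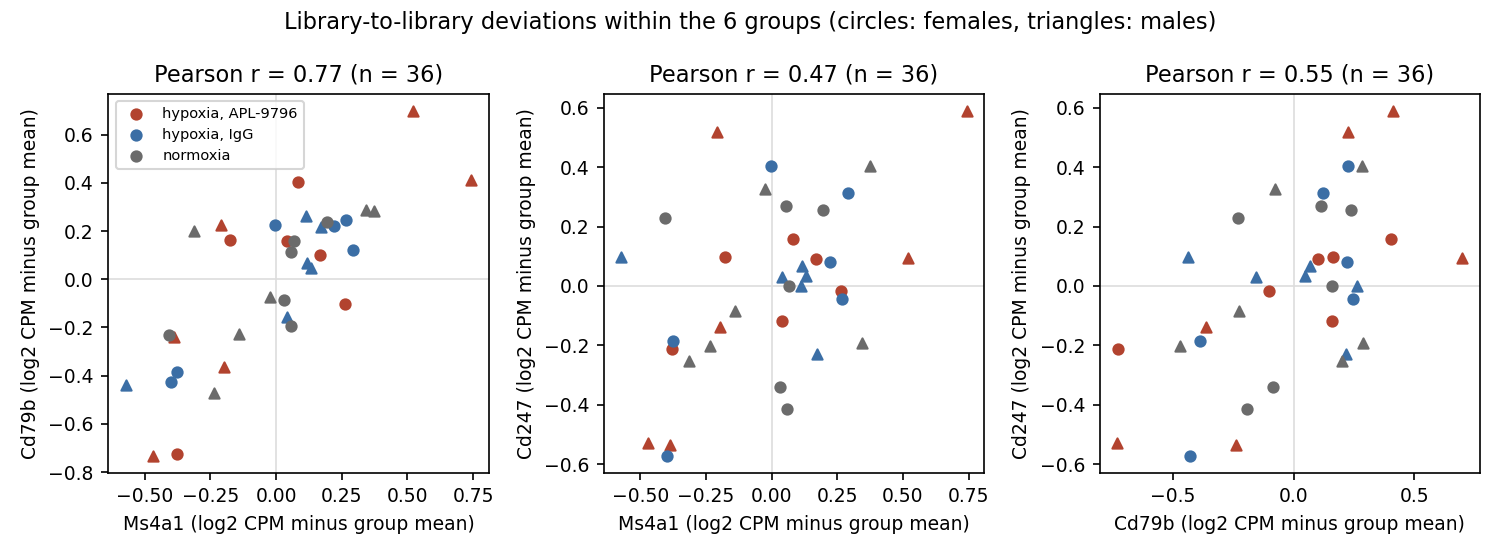
Deviation of log2 CPM from the group mean for each pair of the 3 genes in 36 libraries, coloured by arm, with females as circles and males as triangles. Points of Ms4a1 and Cd79b lie closest to a rising line (r = 0.77), and points of Ms4a1 and Cd247 scatter more widely (r = 0.47).

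Named genes whose within-group pattern was most like each of the 3 over 36 libraries, among 14825 genes of at least 1 CPM, were for the most part lymphocyte genes. For Ms4a1 these included Cd79b (r = 0.77), Ralgps2 (0.74), Ctse (0.72) and Icos, a costimulatory receptor of T cells (0.71). For Cd79b they included Ms4a1 and Cd37 (0.77 each) and Cd3e (0.67). For Cd247 they were Skap1, an adaptor of T cells (0.74), Cd3e (0.69), Il1b, an inflammatory cytokine (0.66), Cd37 (0.66) and Cd3g, a CD3 chain (0.64). The 99th percentile over all those genes was 0.49, 0.49 and 0.47 for Ms4a1, Cd79b and Cd247. These values share libraries, depth and group means, and are a description.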

How the data were processed

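Lung RNA of 36 libraries was analysed from the deposited table of read counts per gene, which holds whole numbers without normalization. Per the submitters' processing notes, the authors used DESeq2 1.24.0. Aligner, counter, strandedness and reference build are each not given in the sources used here. Reads of overlapping, antisense or near-identical genes may therefore be shared. The table has 27308 genes and 1 line of totals, which held 0.0% of gene counts and was left out. Names were updated through RefSeq's gene table of GRCr8, and 11123 genes had a symbol.

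Computed here were CPM with TMM-scaled library sizes and, in edgeR 4.0.16 (R 4.3.3; filterByExpr, robust quasi-likelihood test), a single fit of the 36 libraries with 6 group means, sexes weighted equally, with Benjamini-Hochberg adjustment over 15570 genes and a threshold of 0.05. It was tested on simulated counts. Intervals are 95%. Correlations used log2 CPM (prior count 2) and 100000 permutations within groups. The 3 genes, the marker lists, the tests and most alternatives were chosen with earlier results of these data known. The text names the 3 genes, up to 4 genes by smallest p from a list in each comparison, 5 genes most like each of the 3, and Slc39a12; a few of these are not reported here; any other name was picked with its values in view. Alternatives were RLE size factors, no filter, 1 CPM in 12 libraries, a replicate block, the sequencing run as a term, run A alone, omission of named libraries or of each library in turn, limma-voom (limma 3.58.1) and DESeq2 1.42.0. Cd247 had the fewest reads, 20 in its lowest library.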

Additional observations from a re-analysis of the deposited data

Results flagged for a closer look

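Of 18 groups of 6 values (3 genes in 6 groups), 3 had a library set far from the other 5, where chance gives about 1 in 20. The 3 genes share libraries and vary together, so the 18 groups are not independent. Whether 3 is more than chance gives was not tested. Ms4a1 was low in male IgG 3, at 7.63 CPM, against 11.8 to 12.9 CPM in the other male IgG libraries. It was also low in female normoxia 7, at 9.98 CPM, against 13.6 to 15.2 CPM in the other normoxic females. Cd247 was low in male IgG 4, at 5.54 CPM, against 6.53 to 7.01 CPM in the other male IgG libraries.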

How the results depend on the processing

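The fall of Cd247 between APL-9796 and normoxia kept its direction and its call under all 10 alternatives. It held between −0.47 and −0.35 over 36 fits that each left out 1 library, 3 of which lost the call. All these fits draw on the same libraries and so remain tied to how the genes were picked. Ms4a1 in that comparison passed with a replicate block (−0.33, FDR 0.0359) and with limma-voom (−0.38, FDR 0.0256). It ran from −0.38 to −0.24 without 1 library, and passed without male APL-9796 6 (−0.38, FDR 0.0291). In females alone it passed with the replicate block (−0.43). There it ran from −0.48 to −0.34 without 1 library, and passed without female normoxia 7 (−0.48, FDR 0.0469). Same-numbered pairs of libraries correlated at −0.22 to 0.25 (median 0.04, 9 of 36 over 0.1). Pairs with different numbers correlated at −0.23 to 0.41 (median −0.01, 37 of 180 over 0.1). Replicate numbers thus gave no clear sign of pairing, which these values cannot exclude. The block could not be fitted for female against male.

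Values near 0 changed sign. Ms4a1 between IgG and normoxic males (−0.0018) was 0.0077 with RLE, 0.0075 with no filter, 0.014 with 1 CPM in 12 libraries, 0.0011 with the block, 0.0071 with run as a term, 0.0078 without the 3 libraries highest in fat and muscle genes (male APL-9796 5, male IgG 6, female IgG 11), 0.015 without female normoxia 8 and 9, and 0.0076 with DESeq2, and −0.059 to 0.10 without 1 library. Cd247 between IgG and normoxia was 0.0015 without female normoxia 8 and 9 and −0.049 to 0.045 without 1 library; in females it was −0.0081 in run A. The sex difference of Cd247 between APL-9796 and IgG was 0.17 in run A, 0.20 with limma-voom and −0.19 to 0.046 without 1 library. Cd79b between APL-9796 and normoxic females was −0.18 to 0.022 without 1 library, and Cd247 in males −0.85 to −0.60. Cd79b between APL-9796 and IgG males was −0.25 to 0.04 without 1 library. The correlation of Cd79b with Cd247 fell short in run A (0.49), and that of Ms4a1 with Cd247 ran from 0.36 to 0.55 without 1 library.

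Counts of called genes moved more. IgG against normoxia gave 725 in run A, against 1947. Female against male gave 553 with run as a term, 141 in run A, 1340 with limma-voom and 585 with DESeq2, against 257, and 153 to 874 without 1 library. The sex difference of hypoxia with IgG gave 0 with no filter, with run as a term, in run A, without those 3 libraries and without female normoxia 8 and 9, 1 with the block, 431 with limma-voom and 57 with DESeq2, against 2, and 0 to 560 without 1 library. Single-sex counts without 1 library ran from 1256 to 3701 for IgG and 1861 to 4733 for APL-9796 against normoxia in females, and from 0 to 9 for APL-9796 against IgG in males. In females the counts for IgG were 1607 with run as a term, 99 in run A and 968 without female normoxia 8 and 9, against 2413, and those for APL-9796 were 1203 in run A and 918 without female normoxia 8 and 9, against 3515. In males they were 754 without female normoxia 8 and 9 and 1066 with limma-voom for IgG, against 483, and 1234 with limma-voom for APL-9796, against 652. Of 36 fits without 1 library, the calls against normoxia were lost in 27 for Il7 with IgG, and with APL-9796 in 17 for Plcg2 and 14 for Ms4a4a. The causes were not tested. Cd247 had 20 to 149 reads per library, the fewest of the 3 genes.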
